A study of Mus musculus with 3 samples.

Results

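The Fc receptors for immunoglobulins were described in the 3 libraries of a study of monocytes in experimental autoimmune encephalomyelitis (EAE), which models multiple sclerosis in mice. The members were 6 named genes of the 22238 listed in all 3 libraries: the IgG receptors Fcgr1, Fcgr3, Fcgr4 and Fcgr2b, the shared signalling chain Fcer1g, and the neonatal Fc receptor Fcgrt. They were chosen by name and function, and all 6 had reads in every library.

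Female mice aged 10 to 12 weeks on a C57BL/6J background received myelin oligodendrocyte glycoprotein peptide in complete Freund's adjuvant under the skin, with 250 ng of pertussis toxin given into the peritoneum 2 and 24 hours later. The sample titles mark all 3 populations as WT, for wild type. All 3 populations came from immunized mice at days 14 to 15, and no library of unimmunized mice was analysed here. Bone marrow monocytes were sorted as CD45+ CD11b+ Ly6Chi Ly6G- CD11c- cells from 13 mice in 2 experiments, after enrichment with a monocyte isolation kit. From the spinal cord of 18 mice in 3 experiments, CD45+ CD11b+ Ly6G- cells that also carried CD64 were split by Ly6C into monocytes (Ly6Chi) and monocyte-derived antigen-presenting cells, or APCs (Ly6Clow/-). The monocytes of the marrow and of the cord are called marrow monocytes and cord monocytes below. CD64 is the protein of Fcgr1 and was a gate for both spinal cord populations but not for bone marrow monocytes. The cells of each population were pooled into 1 library, so no difference below has a replicate check and no test of the populations was possible.

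Fc receptors bind the constant part of antibodies and link them to the cells that carry them. Fcgr1, Fcgr3 and Fcgr4 encode activating receptors, which need the chain encoded by Fcer1g to reach the surface and to signal through its tyrosine motif. Fcgr2b encodes the inhibitory receptor, which carries an inhibitory motif in its own tail. Fcgrt encodes the heavy chain of FcRn, which pairs with beta 2 microglobulin and returns IgG from acidic endosomes instead of letting it be degraded. In the inflamed central nervous system, microglia and infiltrating macrophages carry Fc receptors and can take up antibody-coated myelin through them.

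The library of marrow monocytes held 32115707 reads over the common genes, that of cord monocytes 26116588 and that of APCs 28209327. Levels are given in reads, as the authors estimated them, and in TPM, a share of transcripts corrected for length, rescaled here to the same sum over the common genes. Intervals of TPM are 95% Wilson intervals. A log2 fold change compares scaled reads, and its 98% interval runs from percentile 1 to percentile 99. A gene was called higher or lower where that whole interval lay beyond a 2-fold change and TPM exceeded 3 in at least 1 of the 2 libraries. All these intervals describe counting error alone. Copies made by PCR are not independent molecules, and the spread between animals was not measured. The members took 0.111% of the reads in marrow monocytes, 0.337% in cord monocytes and 0.338% in APCs.

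The genes lie in 3 places of the mouse genome (GRCm38, GENCODE M21). Fcgr2b (chr1:170958617-170976547, minus strand), Fcgr4 (chr1:171018920-171029761, plus strand), Fcgr3 (chr1:171051174-171064935, minus strand) and Fcer1g (chr1:171229572-171234365, minus strand) share a stretch of 276 kb on chromosome 1. Fcgr1 lies at chr3:96282909-96293969 and Fcgrt at chr7:45092990-45103851, both on the minus strand. Transcripts of Fcgr2b and Fcgr3 share 166 windows of 50 bases, the read length, which is 9.58% of the windows of Fcgr3 and 2.92% of those of Fcgr2b. No other members share a window with each other. The windows treat each read alone, while the reads were paired and a mate outside the shared sequence can tell the genes apart. The longest run common to Fcgr2b and Fcgr3 is 129 bases of coding sequence. It is shown because a read within it cannot by itself tell the activating from the inhibitory receptor. Its capitals mark the last 27 bases, which come from exon 4, and the other 102 come from exon 3, in transcripts Fcgr2b-201 (chr1:170967980-170968081 and chr1:170966674-170966700) and Fcgr3-201 (chr1:171057691-171057792 and chr1:171054167-171054193).
Fcgr2b and Fcgr3 (GENCODE): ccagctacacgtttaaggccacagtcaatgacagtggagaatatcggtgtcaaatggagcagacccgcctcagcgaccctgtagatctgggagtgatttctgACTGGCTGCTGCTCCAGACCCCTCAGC
The strand setting of the read counting is not given in the sources used here. The antisense gene Gm38204, which overlaps Fcgr2b, had 0 reads in marrow monocytes and 10 in cord monocytes, and Gm45669, which overlaps Fcgrt, had 0 reads in both.

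All 3 activating receptors and the inhibitory receptor had higher transcript levels in cord than in marrow monocytes, while the shared chain and FcRn were not called. Of the 6 members, 4 were called higher and 0 lower. Among the 4 is Fcgr1, the gene of CD64, a gate for the cord cells only. Its call cannot be told apart from that gate, and the count and the median of the members include it. Across the 10072 active genes of this comparison, 24.6% were called, 13.6% higher and 11.0% lower. The median log2 fold change of the members was 1.73, beside -0.17 over all active genes. Between APCs and cord monocytes, 0 of 6 members were called in either direction, beside 3.61% of 9734 active genes, 1.94% higher and 1.66% lower. The median of the members there was 0.04, beside -0.03 over all active genes. When a coefficient of variation of 0.2 between libraries was assumed, Fcgr2b and Fcgr4 were still called higher in cord monocytes, and Fcgr1 and Fcgr3 were not. The comparisons share the library of cord monocytes. In bulk libraries, fewer cells of a type and less RNA per cell cannot be told apart.

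**Figure D1:**
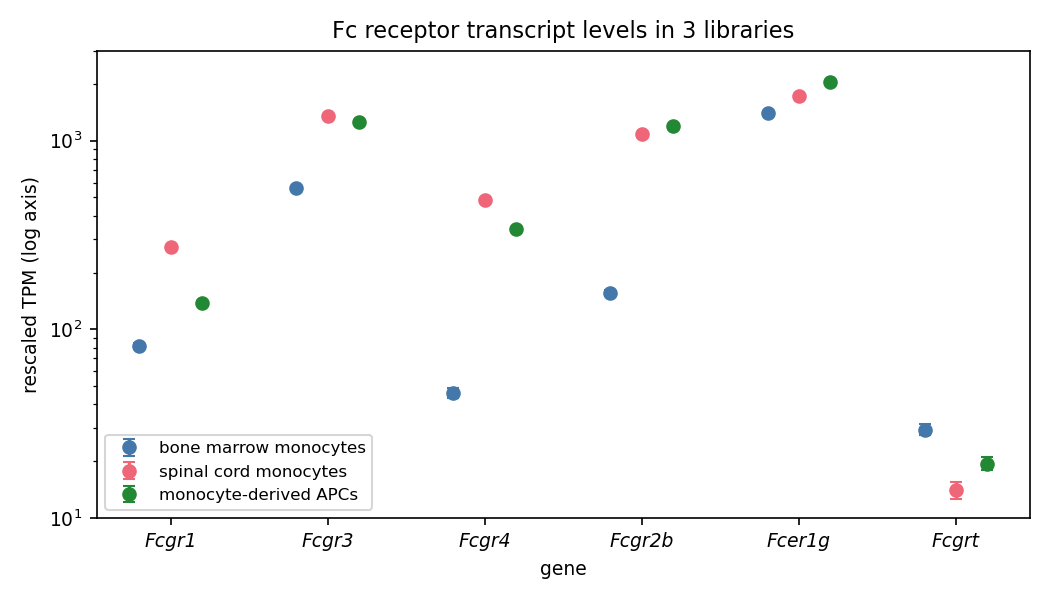
Transcript levels of the 6 genes in rescaled TPM on a log axis, 1 point per library, with 95% Wilson intervals of counting error as bars, most of them smaller than the points. Fcgr1, Fcgr3, Fcgr4 and Fcgr2b are lowest in marrow monocytes, Fcer1g is the highest in all 3 libraries and Fcgrt is between 14.0 and 29.3 TPM.

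Fcgr1 encodes CD64, the receptor that binds monomeric IgG with high affinity. It had 3445 reads in marrow monocytes, 9342 in cord monocytes and 6038 in APCs. These were 81.3 TPM (interval 78.6 to 84.1), 274 TPM (268 to 279) and 138 TPM (134 to 141). The level was highest in cord monocytes, and no intervals overlapped. Its log2 fold change from marrow to cord monocytes was 1.90 (98% interval 1.83 to 1.97), which is 3.73-fold. Both spinal cord populations were sorted for this protein, so that difference cannot be told apart from the gate and is given as a description. APCs and cord monocytes passed the same CD64 gate, and there the log2 fold change was -0.78 (-0.83 to -0.72), short of the call. The effective length of Fcgr1 was 1983 bases in marrow monocytes, 1761 in cord monocytes and 2101 in APCs. Per effective length, the difference of APCs from cord monocytes was -0.91 (-0.97 to -0.86), also not called.

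Fcgr3 encodes CD16, a receptor of low affinity that binds IgG in immune complexes. It had 12922 reads in marrow monocytes, 27676 in cord monocytes and 28730 in APCs, or 559 TPM (549.5 to 569), 1345 TPM (1329 to 1361) and 1260.4 TPM (1246 to 1275). In TPM it was the most abundant IgG receptor in all 3 libraries. The log2 fold change between the monocyte libraries was 1.56 (1.52 to 1.59), or 2.94-fold, the smallest of the 4 receptors. APCs differed from cord monocytes by -0.09 (-0.12 to -0.07), and per effective length by -0.02, with an interval of -0.04 to 0.01 that includes no difference. On TPM as deposited, with a pseudocount of 1, this value was 0.14, so its direction depended on the scaling.

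Fcgr4 encodes a receptor of intermediate affinity for IgG2a and IgG2b, found on monocytes, macrophages and neutrophils. It had 982 reads in marrow monocytes, 9241 in cord monocytes and 7129 in APCs. Its level was 46.1 TPM (43.3 to 49.0) in marrow monocytes, 487 TPM (477 to 497) in cord monocytes and 339.8 TPM (332 to 348) in APCs. It was the least abundant of the IgG receptors in marrow monocytes and exceeded Fcgr1 in both spinal cord libraries. The log2 fold change from marrow to cord monocytes was 3.69 (3.58 to 3.81), or 12.9-fold, the largest of the members, and 4.90% of the active genes had a larger one. APCs differed from cord monocytes by -0.52 (-0.57 to -0.47), which is not a call.

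Fcgr2b encodes CD32B, which restrains the activating receptors when both are bound to the same complex. It had 4796 reads in marrow monocytes, 27858 in cord monocytes and 34725 in APCs, or 156 TPM (152 to 161), 1089 TPM (1077 to 1102) and 1200.1 TPM (1188 to 1213). It ranked 935th of all common genes in marrow monocytes, 161st in cord monocytes and 127th in APCs. The log2 fold change between the monocyte libraries was 2.997 (2.95 to 3.05), or 7.99-fold, and between APCs and cord monocytes 0.17 (0.14 to 0.20). Since Fcgr2b and Fcgr3 share coding sequence, their reads were also summed, an alternative chosen after seeing the data. The summed reads gave a log2 fold change of 2.11 between the monocyte libraries and of 0.04 between APCs and cord monocytes. A further 83 windows of Fcgr2b occur in transcripts of genes outside the members.

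Fcer1g encodes the common gamma chain, whose phosphorylated tyrosine motif recruits the kinase SYK. It had 12515 reads in marrow monocytes, 13537 in cord monocytes and 18236 in APCs. Its level was 1396 TPM (1372 to 1421), 1728 TPM (1699 to 1757) and 2044 TPM (2014 to 2074) in the same order. The chain was the most abundant member in each library, and it ranked 119th, 91st and 66th of all common genes. Its log2 fold change between the monocyte libraries was 0.57 (0.53 to 0.61), and between APCs and cord monocytes 0.28 (0.24 to 0.32). Neither was called.

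Fcgrt had 887 reads in marrow monocytes, 365 in cord monocytes and 606 in APCs, or 29.3 TPM (27.5 to 31.3), 14.0 TPM (12.6 to 15.5) and 19.4 TPM (17.9 to 20.99). It was the member with the lowest level in every library and the only one with its highest level in the bone marrow. The log2 fold change between the monocyte libraries was -0.82 (-1.03 to -0.61), not a call on reads. On TPM as deposited, with a pseudocount of 1, it was -1.003 and was called lower. APCs differed from cord monocytes by 0.58 (0.36 to 0.81), also not a call. Its partner gene B2m, which also encodes the light chain of MHC class I molecules, had 3478, 10747 and 14609 TPM in marrow monocytes, cord monocytes and APCs. B2m was called higher between the monocyte libraries, with a log2 fold change of 1.90 (1.89 to 1.92). The ratio of B2m to Fcgrt in TPM was 119 in marrow monocytes, 768 in cord monocytes and 754 in APCs.

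**Figure D2:**
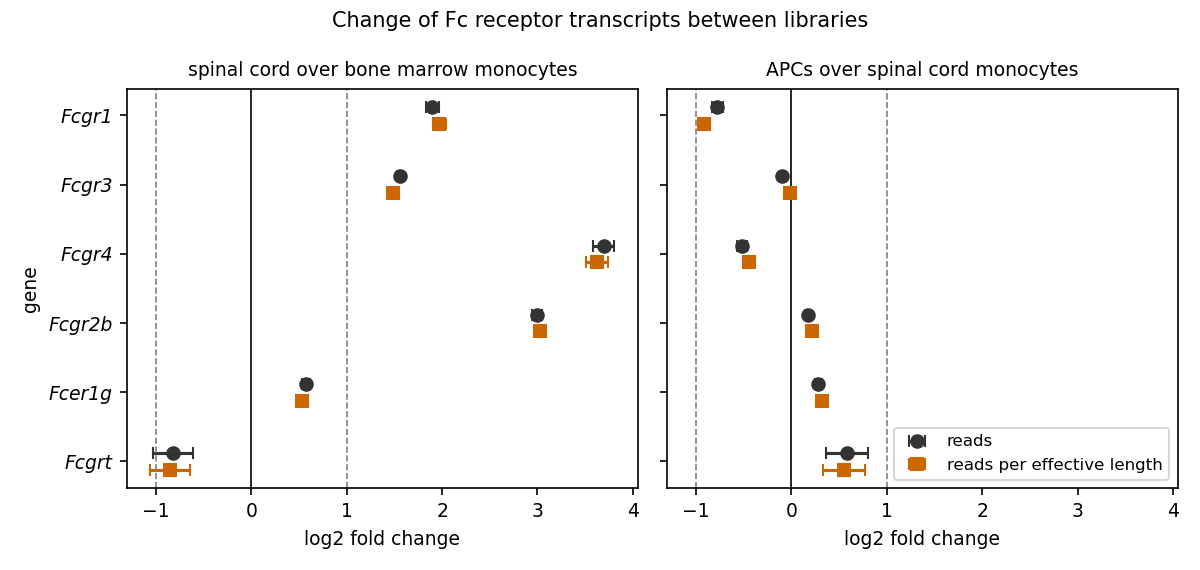
Log2 fold changes of the 6 genes on reads (circles) and on reads per effective length (squares), with 98% intervals of counting error as bars, for cord over marrow monocytes (left) and APCs over cord monocytes (right). Dashed lines mark a 2-fold change; on the left Fcgr1, Fcgr3, Fcgr4 and Fcgr2b lie beyond it, and on the right no gene does.

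Set directly against marrow monocytes, APCs had 4 of 6 members called higher and 0 lower, beside 25.8% of 10190 active genes called, 14.0% higher and 11.7% lower. This comparison shares its libraries with those above. The log2 fold changes were 1.14 (1.07 to 1.21) for Fcgr1, 1.48 (1.44 to 1.52) for Fcgr3, 3.19 (3.07 to 3.30) for Fcgr4 and 3.18 (3.13 to 3.24) for Fcgr2b. APCs were sorted for CD64 and marrow monocytes were not, so the difference of Fcgr1 cannot be told apart from that gate. Fcgr1 stood nearest to the threshold, and scaled by total reads its value was 0.997 and the call was lost. With an assumed coefficient of variation of 0.2, Fcgr1 and Fcgr3 were not called and 2 members were. The value was 0.87 (0.83 to 0.91) for Fcer1g and -0.22 (-0.40 to -0.05) for Fcgrt, neither of them called.

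The makeup of the IgG receptor transcripts differed between the libraries. Their summed level was 843 TPM in marrow monocytes, 3195 TPM in cord monocytes and 2938 TPM in APCs. Fcgr3 made up 66.4% of that sum in marrow monocytes, 42.1% in cord monocytes and 42.9% in APCs. The share of Fcgr2b was 18.5%, 34.1% and 40.8% in the same order. The activating receptor Fcgr3 thus held most of the sum in the bone marrow, and in TPM the share of the inhibitory receptor came near it in APCs. On reads, not corrected for length, the ratio of Fcgr3 to Fcgr2b was 2.69 in marrow monocytes, 0.993 (95% interval 0.977 to 1.01) in cord monocytes and 0.827 (0.815 to 0.840) in APCs. Fcgr2b thus had more reads than Fcgr3 in APCs, while in cord monocytes the interval included equal reads. Fcgr4 held 5.47%, 15.2% and 11.6%, and Fcgr1 held 9.65%, 8.57% and 4.69%.

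**Figure D3:**
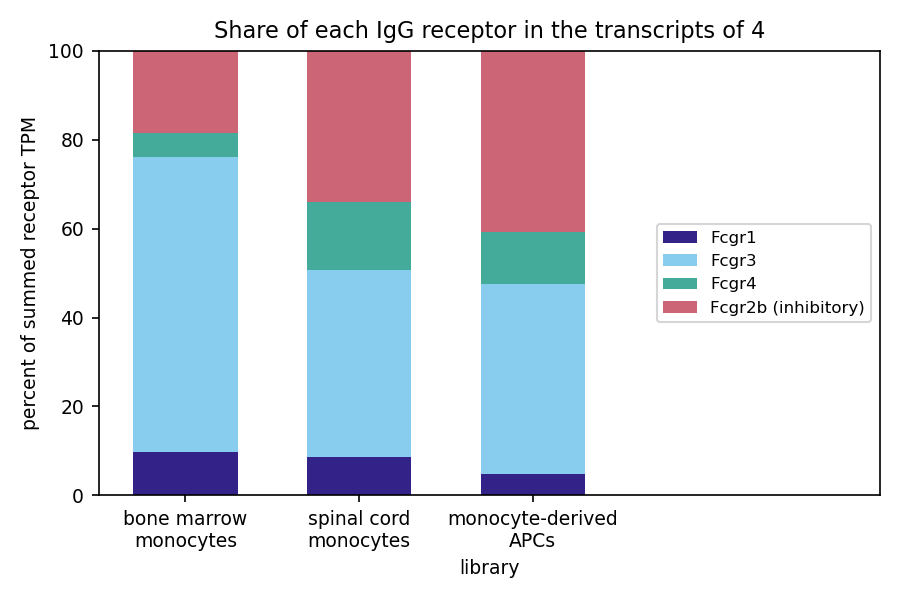
Share of each IgG receptor gene in the summed TPM of Fcgr1, Fcgr3, Fcgr4 and Fcgr2b, as stacked bars from 0 to 100 percent, 1 bar per library. The share of the inhibitory receptor Fcgr2b is 18.5% in marrow monocytes, 34.1% in cord monocytes and 40.8% in APCs.

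A ratio within a library does not depend on the scaling between libraries. In TPM it does depend on the effective lengths, and APCs were quantified on another transcript set than the monocytes. The summed TPM of the 3 activating receptors over that of Fcgr2b was 4.40 (95% interval 4.26 to 4.54) in marrow monocytes, 1.93 (1.90 to 1.96) in cord monocytes and 1.45 (1.43 to 1.47) in APCs. The 3 intervals did not overlap. Without Fcgr1, the gene of the sort marker, the ratios were 3.88, 1.68 and 1.33, in the same order of libraries. Fcgr4 alone over Fcgr2b gave another order, 0.295 (0.275 to 0.316) in marrow monocytes, 0.447 (0.436 to 0.457) in cord monocytes and 0.283 (0.276 to 0.290) in APCs. The intervals of marrow monocytes and APCs overlapped, and only the higher value of cord monocytes stood apart. The ratio of Fcgr4 to Fcgr3 was 0.0824 (0.0772 to 0.0879), 0.362 (0.353 to 0.370) and 0.270 (0.263 to 0.277). The chain Fcer1g over the 3 activating receptors was 2.03 (1.99 to 2.08) in marrow monocytes, 0.821 (0.805 to 0.837) in cord monocytes and 1.18 (1.16 to 1.20) in APCs. In TPM, chain transcripts thus exceeded the sum of these 3 genes in marrow monocytes and APCs and were fewer in cord monocytes, without the other receptors that use the chain.

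Other receptors also use the gamma chain, and a list of 5 of them was followed. Clec4e (Mincle), Clec4d and Clec4n (dectin-2), lectins that sense microbial and damage-derived ligands, were called higher in cord than in marrow monocytes, and Pira2 was called lower. The median log2 fold change of the 4 active genes was 3.90, beside -0.17 over all active genes. Of all active genes in that comparison, 13.6% were called higher and 11.0% lower. Clec4e had 94.9 TPM in marrow monocytes, 869 in cord monocytes and 391.5 in APCs, with a log2 fold change between the monocyte libraries of 3.42 (3.35 to 3.48). Clec4d had 26.8, 486 and 486 TPM, and its log2 fold change was 4.38 (4.23 to 4.54). Clec4n had 5.48, 271 and 539 TPM, and its log2 fold change was 5.83 (5.51 to 6.16). The lectin genes were thus low in the bone marrow and high in both spinal cord libraries. Clec4n was the only one of the list called between APCs and cord monocytes (log2 fold change 1.09, 1.03 to 1.15), and Clec4e was called lower there per effective length (-1.07). On reads, 3.61% of all active genes were called in that comparison. Pira2, whose family holds near-identical copies that make its reads uncertain, had 142, 35.5 and 61.9 TPM. Oscar had 0 reads in all 3 libraries, where a count of 0 allows up to 3 reads.

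Tyrobp encodes DAP12, the other main chain with such a tyrosine motif in myeloid cells, and was not called in any comparison. It had 3077 TPM in marrow monocytes, 2597 in cord monocytes and 1675 in APCs. The ratio of Fcer1g to Tyrobp in TPM was 0.454 (0.444 to 0.464), 0.665 (0.650 to 0.681) and 1.22 (1.19 to 1.25) in the same order. Hcst, the gene of DAP10, had 62.4, 41.6 and 25.4 TPM and was not called either. Cd247, which encodes the zeta chain of T and NK cells, had 3, 60 and 168 reads and was called higher in APCs than in marrow monocytes (log2 fold change 5.85).

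The genes that carry the signal of the activating receptors were followed as a list. Of 18 listed genes, all active, 3 were called higher and 1 lower in cord than in marrow monocytes, and 14 were not called, beside 13.6% of all active genes called higher and 11.0% lower. Their median log2 fold change was 0.10, beside -0.17 over all active genes. Src, a kinase that can phosphorylate the tyrosine motifs, had 18 reads in marrow monocytes, 2181 in cord monocytes and 3504 in APCs. Its log2 fold change between the monocyte libraries was 7.33 (6.61 to 8.18), the largest of the list. The kinase gene Tec had 20.0, 44.003 and 30.7 TPM (1.35, 1.22 to 1.48), and the adaptor gene Sh3bp2 had 54.0, 99.3 and 77.1 TPM (1.14, 1.05 to 1.22). Rac2, a GTPase of phagocytes that drives actin and the oxidative burst, was called lower, at 622 TPM in marrow monocytes, 251 in cord monocytes and 351 in APCs (-1.13, -1.18 to -1.08).

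The kinase genes Lyn and Prkcd were abundant and were not called between the monocyte libraries. Lyn had 361, 229.7 and 142 TPM, and Prkcd 335, 566 and 267 TPM. Syk, the kinase bound by the phosphorylated chain, was singled out after its values were seen and had 149.98 TPM in marrow monocytes, 136 in cord monocytes and 132 in APCs. Its log2 fold change between the monocyte libraries was 0.09 (0.05 to 0.13). Between APCs and cord monocytes, 0 of the 18 genes were called, beside 3.61% of all active genes, and the median was -0.30. Between APCs and marrow monocytes, Src was called higher, and Lyn (-1.05), Vav3 (-1.48), Pik3cd (-1.51) and Rac2 (-1.20) were called lower. Per effective length, Lyn (-1.01) and Rac2 (-0.49) were not called in that comparison, and the effective length of Rac2 was 1311 bases in marrow monocytes and 828 in APCs.

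Of 10 genes of inhibitory signalling, 1 was called higher and 0 lower in cord than in marrow monocytes, beside 13.6% and 11.0% of all active genes, with a median log2 fold change of -0.25. The gene called was Dok2, an adaptor that restrains tyrosine kinase signals, with 5.15 TPM in marrow monocytes, 68.5 in cord monocytes and 29.96 in APCs. Its log2 fold change was 3.81 (3.55 to 4.09) between the monocyte libraries and -0.99 (-1.13 to -0.86) between APCs and cord monocytes. Inpp5d, the gene of the lipid phosphatase SHIP1 that acts with the inhibitory receptor, had 122, 117 and 93.6 TPM and a log2 fold change of 0.06 (0.01 to 0.11) between the monocyte libraries. The inhibitory receptor gene was thus called higher there, and the gene of the phosphatase was not called. Ptpn6, which encodes the phosphatase SHP-1, had 483, 258 and 309.8 TPM, and Csk, a kinase that switches off the SRC family, had 208, 129 and 122 TPM; neither was called. Between APCs and cord monocytes, 0 of the 10 genes were called, beside 3.61% of all active genes, and the median was -0.19. Dok3 was called lower in APCs than in marrow monocytes (-1.39), at 49.3 against 147 TPM, and Dok2 was called higher (2.84).

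**Figure D4:**
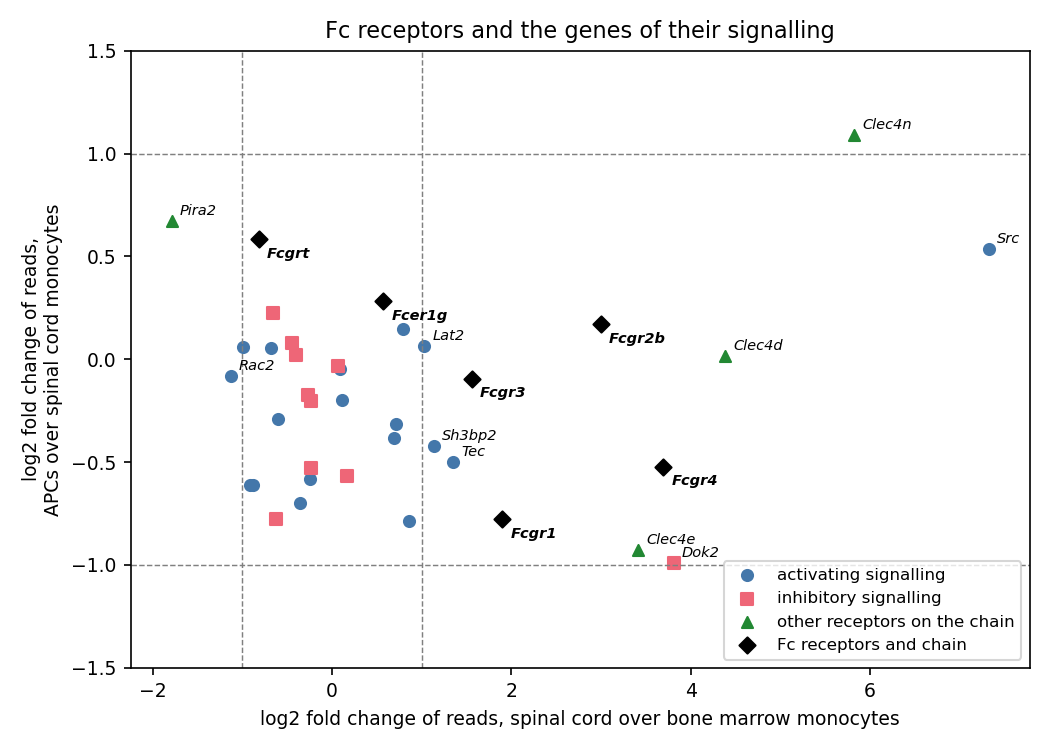
Log2 fold change of reads for cord over marrow monocytes (horizontal) against APCs over cord monocytes (vertical), 1 point per active gene, for the Fc receptors and chain (diamonds) and the lists of activating signalling (circles), inhibitory signalling (squares) and other receptors on the chain (triangles). Dashed lines mark a 2-fold change; both axes share the library of cord monocytes, and Src lies farthest to the right at 7.33.

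Of 12 other genes of Fc receptors or Fc receptor-like proteins, 4 were active in the comparison of the monocyte libraries, 2 of them called higher and 1 lower. The genes called, Fcrlb, Fcrls and Fcrl1, are Fc receptor-like genes, and whether their proteins bind antibody was not examined here. Of all active genes in that comparison, 13.6% were called higher and 11.0% lower. Fcrlb, which encodes an intracellular Fc receptor-like protein, had 0 reads in marrow monocytes, 561 in cord monocytes and 460 in APCs. Taken against 3 reads in the bone marrow library, the difference was at least 257-fold higher in cord monocytes. Fcrls had 6, 193 and 447 reads, with a log2 fold change of 5.32 (4.16 to 6.85) between the monocyte libraries, and it is also a marker gene of microglia. Fcrl1, known from B cells, had 158, 23 and 31 reads and was called lower (-2.29, -3.08 to -1.59). Trim21, which encodes a receptor for antibody in the cytosol, had 18.6, 16.5 and 9.04 TPM and was not called. The genes of the IgE receptor that Fcer1g also serves, Fcer1a and Ms4a2, had at most 4 reads in any library.

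Marker lists of other cell types that carry Fc receptors were measured. The Ly6G- gate of all populations was set against neutrophils, the CD11c- gate of the marrow and the CD64+ gate of the cord against conventional dendritic cells, and the methods describe a way of taking out the cord that is meant to remove the leptomeninges. Microglia carry CD11b and CD64. The paper describes its gate on high CD45 as leaving microglia out, and it could not exclude a small number of them among the APCs. Of 8 microglia markers, 1 exceeded 3 TPM in marrow monocytes, 7 in cord monocytes and 8 in APCs, and their summed level was 13.003, 99.2 and 265 TPM. P2ry12 led that list in the bone marrow, and Sall1 had 0 reads there, 300 in cord monocytes and 1415 in APCs. Of these markers, 7 were called higher in cord than in marrow monocytes, and 7 in APCs over cord monocytes. Of all active genes, 13.6% were called higher and 11.0% lower in cord than in marrow monocytes, and 1.94% higher in APCs over cord monocytes. The 8 neutrophil markers summed to 532, 73.3 and 276 TPM, of which 5, 6 and 5 exceeded 3 TPM. Of that list, 5 were called lower in cord than in marrow monocytes, among them the granule genes Ngp (3826, 445 and 3178 reads) and Elane (2664, 48 and 13 reads), and 2 were called higher, Cxcr2 (153, 488 and 394 reads) and Retnlg (13, 107 and 423 reads). In APCs over cord monocytes, 3 of that list were called higher, Ngp (log2 fold change 2.69), Ltf (2.44) and Retnlg (1.83). Elane was called lower there (-1.98), beside 1.66% of all active genes called lower. The 6 markers of macrophages at the borders of the central nervous system summed to 15.7, 36.8 and 51.1 TPM, of which 2, 3 and 3 exceeded 3 TPM. Siglec1 (314, 2561 and 2309 reads) and Mrc1 (159, 649 and 1915 reads) were called higher in cord than in marrow monocytes, and Lyve1 had 0, 2 and 0 reads. Mrc1 was also called higher in APCs over cord monocytes (1.41). The 6 markers of conventional dendritic cells summed to 40.8, 21.3 and 28.3 TPM, of which 1, 3 and 5 exceeded 3 TPM. Flt3 made most of the marrow sum (37.8, 3.65 and 6.65 TPM) and was called lower in cord than in marrow monocytes. Batf3 (29, 106 and 73 reads) and Clec9a (7, 118 and 211 reads) were called higher there. Zbtb46 (2, 31 and 241 reads) and Itgae (1, 44 and 243 reads) were called higher in APCs over cord monocytes. Genes of these lists other than the most abundant and those at 0 reads were named after their values were seen. The part of these cells in the results was not tested.

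For NK cells, which carry Fcgr3 and Fcer1g, 0 of 5 markers exceeded 3 TPM in any library, the sum was between 0.0671 and 1.42 TPM, and Ncr1 had 0, 0 and 3 reads. For B cells, which carry Fcgr2b, Pax5 had 0, 1 and 3 reads, while 1, 0 and 2 of the 6 listed genes exceeded 3 TPM. That list summed to 9.05, 4.58 and 85.1 TPM, with Cd79b at 194, 57 and 67 reads and Ebf1 at 20, 77 and 4458 reads, the latter called higher in APCs than in cord monocytes. For mast cells and basophils, 0 of 7 markers exceeded 3 TPM and the sum was between 0.665 and 2.94 TPM. The 6 T cell markers summed to 0.417, 45.2 and 65.8 TPM, of which 0, 5 and 5 exceeded 3 TPM. The 6 endothelial markers summed to 17.4, 76.9 and 46.5 TPM, of which 2, 4 and 3 exceeded 3 TPM. The 6 monocyte markers all exceeded 3 TPM in every library and summed to 10632, 9092 and 3617 TPM. They include Ly6c2, a gene of the Ly6C by which the cord cells were split. Its lower level in APCs, and its part in the lower sum, cannot be told apart from that gate. In APCs over cord monocytes, 3 of the 6 were called lower and 3 were not called, beside 1.66% of all active genes called lower. Those called were Ly6c2 (log2 fold change -1.85), Plac8 (-2.78) and Ccr2 (-1.13), the latter 2 named after their values were seen. Plac8 and Ccr2 were not sort markers, and why they were lower was not tested. Csf1r (374, 676 and 1134 TPM) and Itgam (485, 533 and 510 TPM) were among those not called. For Csf1r, the log2 fold change of APCs over cord monocytes was 0.18 on reads and 0.83 per effective length. Its effective length was 2919 bases in cord monocytes and 2023 in APCs.

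The promoters of Fcgr1 and Fcgr4 are shown because each held a motif that the other members lacked in the 250 bases before the RefSeq start (GRCm38.p6). Motifs were searched on both strands in 32526 promoters. TTCNNNGAA, the core of sites bound by STAT dimers, was in 7.04% of all promoters and, among the members, was found for Fcgr1, at bases 109 to 101 before the start. The core of the interferon-stimulated response element, searched as GAAA, 2 bases of any kind and another GAAA, was in 2.98% of all promoters and, among the members, was found for Fcgr4, at bases 73 to 64. Capitals mark these matches, and bases inside the GENCODE gene were left off the end. The Fcgr1 stretch is chr3:96293970-96294219 on the minus strand and the Fcgr4 stretch is chr1:171018676-171018919 on the plus strand.
Fcgr1 promoter: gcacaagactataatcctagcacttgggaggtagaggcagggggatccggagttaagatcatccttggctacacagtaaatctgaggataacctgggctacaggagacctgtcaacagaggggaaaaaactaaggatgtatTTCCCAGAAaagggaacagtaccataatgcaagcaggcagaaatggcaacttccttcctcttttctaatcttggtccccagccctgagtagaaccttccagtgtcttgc
Fcgr4 promoter: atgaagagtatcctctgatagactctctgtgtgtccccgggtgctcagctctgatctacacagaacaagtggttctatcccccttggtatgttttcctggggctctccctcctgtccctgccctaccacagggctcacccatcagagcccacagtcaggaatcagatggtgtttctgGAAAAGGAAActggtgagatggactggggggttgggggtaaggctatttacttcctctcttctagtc
GGAA, the core of sites for ETS factors such as PU.1, was in 93.4% of all promoters with a median of 3 matches, and such matches overlap the marked ones of Fcgr1 and Fcgr4. The members had 6 (Fcgr1), 4 (Fcgr2b), 3 (Fcgr3), 5 (Fcgr4), 5 (Fcer1g) and 3 (Fcgrt) matches. A match describes the letters of the window and is no evidence of binding.

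For each member, the genes with the most similar pattern were taken from 8476 genes above 3 TPM in all 3 libraries, by the distance between their 3 centred log2 TPM values. Over 3 libraries many genes lie close to any pattern, so the names are a description. Nearest to Fcgr1 were Helz2, Ugcg and Map3k8, with Helz2 at 8.87, 30.2 and 15.6 TPM (distance 0.0375). Nearest to Fcgr2b were the chemokine gene Ccl3, Dapk1 and Pdlim7, with Ccl3 at 145, 1138 and 1201 TPM (distance 0.123). For Fcgr4 they included Zc3h12a and Kcnn4, with Zc3h12a at 10.9, 119.7 and 85.4 TPM (distance 0.0655). For Fcgr3 they were Myof, Hyi and Nlrp1b, for Fcer1g Arhgap24, Adora3 and Acot13, and for Fcgrt Sh2d1b1, BC048403 and Nfic.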

How the data were processed

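Per the paper's methods and the labels, 50-base paired-end reads of 1 pooled library per population were quantified by the authors with Salmon 0.14.1 (mm10, GENCODE vM22), transcripts pooled per gene. The authors deposited TPM, normalized for effective length and library size, and estimated counts, not normalized, with fractions of reads shared between transcripts. The deposited monocyte values cover 54432 genes and those of APCs 22242, so APCs were quantified on another transcript set, which the methods do not describe. The source label of the APC sample names bone marrow where its title and tissue label name the spinal cord; the latter were followed.

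Here, estimated counts were rounded to whole reads and compared over the 22238 common genes (symbols and coordinates from GENCODE M21, which holds 99.0% of the identifiers and versions). The log2 fold change had a gamma posterior of reads plus 1, scaled by median-of-ratios factors of each pair of libraries, after the GFold definition in the methods. The call rule was checked on data simulated with counting error alone, so that check does not cover the spread between libraries. Genes named were all members and, of each list, genes called in a comparison and up to 3 with the highest TPM; of marker lists, the leading gene or defining genes at 0 reads; and per member the 3 genes nearest in pattern. Members and lists were chosen with earlier results of these data known. Alternatives were total reads, TMM factors, reads per effective length, deposited TPM with a pseudocount of 1 or 0.1, a TPM minimum of 4 or none, 0.5 reads added, percentiles 0.1 and 99.9, a plain 2-fold change, an assumed coefficient of variation of 0.2 or 0.4 between libraries, other gene sets, and other ratios. Promoters came from RefSeq and transcripts from GENCODE. Protein sequences were not used here. Results on 2 genes that the naming rule covers are not reported here. TMM factors came from edgeR 4.0.16 in R 4.3.3, and the rest was computed in Python 3.11.15 with scipy 1.17.1, pandas 2.3.3, numpy 2.4.6 and matplotlib 3.10.9.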

Additional observations from a re-analysis of the deposited data

How the results depend on the processing

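No paired analysis was possible because each population had 1 library and the labels carry no replicate numbers. With 1 library per population, the spread between libraries is unknown. When a coefficient of variation of 0.2 or of 0.4 was assumed, 2 of 6 members were called higher between the monocyte libraries, and 2 between APCs and marrow monocytes, in place of 4: Fcgr2b and Fcgr4 were called, while Fcgr1 and Fcgr3 were not. Under the other alternatives the counts were 4 or, with Fcgrt called lower, 5 between the monocyte libraries, 3 or 4 between APCs and marrow monocytes, and 0 between APCs and cord monocytes. Of 246 log2 fold changes of members under alternatives, 233 stayed on the same side of the call, 11 lost it and 2 gained it, and no called value turned its sign. In 3 of them the sign turned, all for Fcgr3 between APCs and cord monocytes, which was not called: -0.09 became 0.14 on deposited TPM with either pseudocount and 0.04 with the reads of Fcgr2b and Fcgr3 summed. Fcgr3 to Fcgr2b was 3.58, 1.23 and 1.05 in TPM and 2.69, 0.993 and 0.827 on reads in marrow monocytes, cord monocytes and APCs. Fcgrt was called lower between the monocyte libraries on deposited TPM (-1.003 with a pseudocount of 1, -1.06 with 0.1). Fcgr1 lost its call between APCs and marrow monocytes on total reads (0.997) and on deposited TPM (0.99 and 0.996).

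On reads in place of TPM, the activating to inhibitory ratio was 3.62 in marrow monocytes, 1.66 in cord monocytes and 1.21 in APCs, and the chain to activating ratio 0.721, 0.293 and 0.435, below 1 in all libraries, where the chain had the smallest effective length. Without Fcgr1 the activating to inhibitory ratio was 3.88, 1.68 and 1.33, and for Fcgr4 alone 0.295, 0.447 and 0.283. Total reads moved the median of all genes by -0.16 between the monocyte libraries and by -0.14 between APCs and marrow monocytes, and the ratio of rescaled TPM by -0.27 and -0.31. Between APCs and cord monocytes, 53.8% of the genes called were higher, and 41.7% per effective length (232 higher and 324 lower). The cause was not tested.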

Other observations

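The 11 immunoglobulin genes followed, which encode antibody chains and are made by B cells and plasma cells, summed to 203 TPM in marrow monocytes, 24.1 in cord monocytes and 44.6 in APCs. Ighm, the gene of the IgM heavy chain, made most of each sum, at 192, 21.9 and 40.1 TPM, and was called lower in cord than in marrow monocytes (log2 fold change -2.78, 98% interval -2.93 to -2.64). Igha, the gene of the IgA heavy chain, had 63 reads in marrow monocytes, 0 in cord monocytes and 8 in APCs, at least 15.3-fold lower in cord monocytes when 3 reads are taken for the 0. The genes of the IgG heavy chains, the ligands of these receptors, had at most 11 reads in any library (Ighg1 in marrow monocytes), named after their values were seen. Jchain had 17, 2 and 2 reads.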
